A study of Mus musculus with 10 samples.

Results

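The 59 genes described here encode the machinery of cell division: 33 belong to mitosis (kinesin motors, spindle and midzone proteins, mitotic kinases, the spindle checkpoint, kinetochore proteins, mitotic cyclins and chromosome proteins) and 26 to DNA replication (the MCM helicase, its loaders and activators, polymerase and clamp subunits, enzymes of deoxynucleotide supply, and the cyclins and transcription factors of entry into S phase). They were chosen by name, with earlier results of these data known. An array probe was counted as theirs when its gene name, or the gene to which its accession belongs, was on the list. All 59 were found, on 96 of the 41174 gene probes of the array, and all 59 were among the 18955 genes with a symbol that could be tested. The groups compared were these: 5 hindlimb-unloaded mice, hung by the tail in a head-down tilt for 24 h so that the hind legs bore no weight, and 5 freely ambulating control mice. Mice of both groups were male, of the ICR strain and 6 months old, and femur RNA of each mouse was hybridised to its own one-colour Agilent array. The labels give the tissue as bone and do not say whether marrow was removed, and suspension acts on the whole animal, not on the femur alone.

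Dividing cells copy their DNA in S phase and separate the copies in mitosis, and each step has its own set of transcripts. Replication genes are switched on at the entry into S phase by E2F transcription factors, while most mitosis genes peak later, under complexes that bind the cell cycle genes homology region (CHR) of their promoters, often next to a CCAAT box bound by NF-Y. In a femur with its marrow most cycling cells are blood cell precursors, joined by growth plate chondrocytes and bone-forming precursors.

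The choice of genes did not use promoter sequence, which is described first. Promoter windows of 300 bases, from 250 bases before to 50 after the annotated start, were taken from RefSeq (GRCm38.p6), which gave 27 mitosis genes and 21 replication genes. Aurkb, Ccna2, Cdc25c, Incenp, Kif20a, Tpx2, Ccne2, Gins1, Gins2, Gmnn and Mcm4 had no entry. The letters searched on both strands were TTTGAA and TTTAAA for the CHR, CCAAT for the NF-Y box, and TTTCGCGC, TTTGGCGC, TTTCCCGC and TTCCCGCC for E2F, of which TTTCCCGC and TTCCCGCC can overlap. The promoters of 3 mitosis and 3 replication genes are shown because these had the smallest p of their set among genes with 1 window that held the set's motif, with CHR matches (first 3) and E2F matches (last 3) in capitals.
Kif11, chr19:37376132-37376431, plus strand: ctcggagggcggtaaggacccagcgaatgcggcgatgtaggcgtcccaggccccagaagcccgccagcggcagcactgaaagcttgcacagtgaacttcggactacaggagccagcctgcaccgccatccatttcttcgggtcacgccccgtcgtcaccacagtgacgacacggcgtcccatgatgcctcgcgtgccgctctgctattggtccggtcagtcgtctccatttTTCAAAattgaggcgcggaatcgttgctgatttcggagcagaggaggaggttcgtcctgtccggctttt
Kif23, chr9:61946750-61947049, minus strand: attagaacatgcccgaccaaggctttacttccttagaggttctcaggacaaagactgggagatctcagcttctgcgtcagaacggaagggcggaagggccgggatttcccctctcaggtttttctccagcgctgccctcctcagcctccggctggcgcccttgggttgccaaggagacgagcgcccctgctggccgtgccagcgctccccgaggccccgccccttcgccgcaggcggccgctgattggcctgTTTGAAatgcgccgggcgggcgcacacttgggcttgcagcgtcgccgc
Mki67, chr7:135716330-135716629, minus strand: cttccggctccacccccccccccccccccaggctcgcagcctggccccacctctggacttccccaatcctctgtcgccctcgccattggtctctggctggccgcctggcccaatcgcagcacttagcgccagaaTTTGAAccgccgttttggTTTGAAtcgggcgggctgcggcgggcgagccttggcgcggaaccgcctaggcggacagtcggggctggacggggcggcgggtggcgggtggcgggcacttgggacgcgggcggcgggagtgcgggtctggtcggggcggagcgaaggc
Pola1, chrX:93632106-93632405, minus strand: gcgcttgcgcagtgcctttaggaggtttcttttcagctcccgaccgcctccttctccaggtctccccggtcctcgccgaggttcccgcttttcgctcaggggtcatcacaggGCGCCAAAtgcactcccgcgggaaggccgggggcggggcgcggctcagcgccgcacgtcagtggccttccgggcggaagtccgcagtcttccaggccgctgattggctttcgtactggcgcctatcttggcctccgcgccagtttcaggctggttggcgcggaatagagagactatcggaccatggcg
Rrm1, chr7:102441445-102441744, plus strand: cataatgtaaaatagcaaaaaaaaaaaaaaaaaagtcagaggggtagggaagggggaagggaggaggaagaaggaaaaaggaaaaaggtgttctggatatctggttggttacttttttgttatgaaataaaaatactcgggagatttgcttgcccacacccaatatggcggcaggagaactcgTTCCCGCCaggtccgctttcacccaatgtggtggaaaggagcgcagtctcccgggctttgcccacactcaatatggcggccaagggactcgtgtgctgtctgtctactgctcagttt
Cdc6, chr11:98907901-98908200, plus strand: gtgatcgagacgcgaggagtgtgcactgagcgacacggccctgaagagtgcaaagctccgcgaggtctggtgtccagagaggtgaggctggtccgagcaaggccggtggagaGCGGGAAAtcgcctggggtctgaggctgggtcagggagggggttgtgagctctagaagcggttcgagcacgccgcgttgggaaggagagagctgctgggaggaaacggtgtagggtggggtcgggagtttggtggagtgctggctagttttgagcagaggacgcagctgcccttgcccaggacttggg
Counted from the start as position 1 with no position 0, the match began at position -19 in Kif11 and 3 in Kif23, and the pair in Mki67 began at -116 and -98. The E2F match began at -138 in Pola1, -67 in Rrm1 and -138 in Cdc6.

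A CHR was found in 24 of 27 mitosis promoters (88.9%), against 8 of 21 replication promoters (38.1%) and 30.6% of all 27025 genes in the table. An E2F motif was found in 0 of 27 mitosis promoters, against 11 of 21 replication promoters (52.4%) and 4.0% of all genes. The NF-Y box was found in 77.8% of mitosis, 66.7% of replication and 41.1% of all promoters. Among genes of the same processes that are not members, the CHR was in 66.7% of 30 mitosis and 32.0% of 25 replication promoters, and the E2F motif in 16.7% and 52.0% of the same sets. The 3 mitosis promoters without a CHR were those of Bub1, Mad2l1 and Nusap1. A match shows that the letters are present, not that a factor binds.

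**Figure D1:**
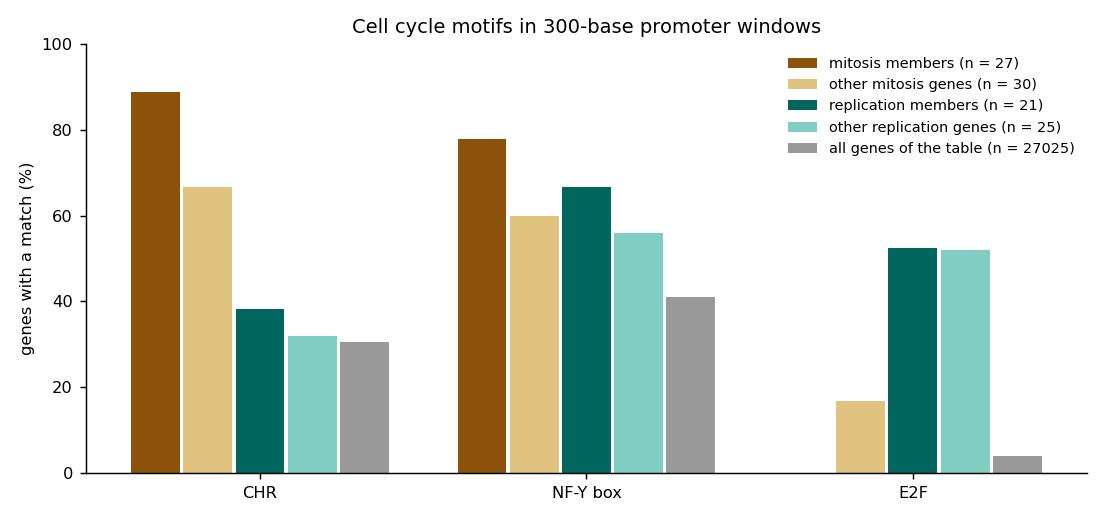
Bars give the percentage of genes whose promoter window of 300 bases holds at least 1 match to the CHR, the NF-Y box or the E2F motif, for mitosis and replication members, other genes of both processes, and all genes of the RefSeq table. The CHR bar is tallest for mitosis members (88.9%) and the E2F bars are tallest for the replication sets (52.4% and 52.0%), with no E2F bar for mitosis members.

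All levels are log2 signals after subtraction of the array's 75th percentile, and differences are unloaded minus control. Slide 1 carried controls 1 to 4, slide 2 carried unloaded 1 to 3 with control 5, and slide 3 carried unloaded 4 and 5, so group and slide can be separated on slide 2 alone and cannot be told apart on the other slides. The share of spots well above background was 89.8% to 95.5%, and unloaded 5, with the lowest share, also stood apart in its mean correlation with the other arrays (0.972, against 0.984 to 0.987 for the others). The markers of osteoblasts and osteocytes, blood cell precursors, cartilage and muscle that were tested were well above background on all arrays. All 59 members were well above background on all 10 arrays. Over all tested probes the scaling left an uneven split: 37.4% of 38629 differences were negative with the 75th percentile, 47.3% with quantile normalization and 56.1% with the median, so members were read against the same share.

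Most division transcripts were lower in the unloaded femur by a small amount, but none passed the test. Of the 59 members 43 had a negative difference, 24 of 33 in mitosis and 19 of 26 in replication, where 37.4% of all tested probes did. Members were read from their brightest tested probe, whereas the background counts every tested probe, dimmer ones included. The median difference was -0.10 over all members, against 0.07 over all tested probes. Under quantile normalization it was -0.06 over members, against 0.01 over all probes, and under cyclic loess -0.05 over members, against 0.01 over all probes. With the mean of all probes of a gene it was -0.07 over members, against 0.07 over all genes. In that setting 42 of 59 members were negative, where 34.0% of all genes were. No member was called by limma at a Benjamini-Hochberg adjusted p below 0.05, where 0.00259% of all tested probes were (1 of 38629), and the smallest adjusted p of a member was 0.231. At an unadjusted p below 0.05, 11 members were lower and 0 were higher, 18.6% against backgrounds of 5.92% lower and 10.2% higher. The list was chosen with earlier results of these data known, so such shares describe it and do not test it. Quantile normalization gave 7 lower members beside 7.61% of all probes lower and 5.42% higher, and median scaling gave 20 beside 11.6% lower and 3.59% higher. Under 75th-percentile scaling the 11 lower members were Tpx2, Kif11, Kif23, Mki67, Ccna2, Nusap1, Bub1 and Kif4 of mitosis and Pola1, E2f8 and Mcm10 of replication. The unloaded and control arrays did not overlap for 5 members, all lower, namely Tpx2, Kif11, Kif23, Pola1 and E2f8, where 1.65% of all probes were lower without overlap. In bulk RNA of this kind, fewer dividing cells and less RNA per dividing cell cannot be told apart.

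**Figure D2:**
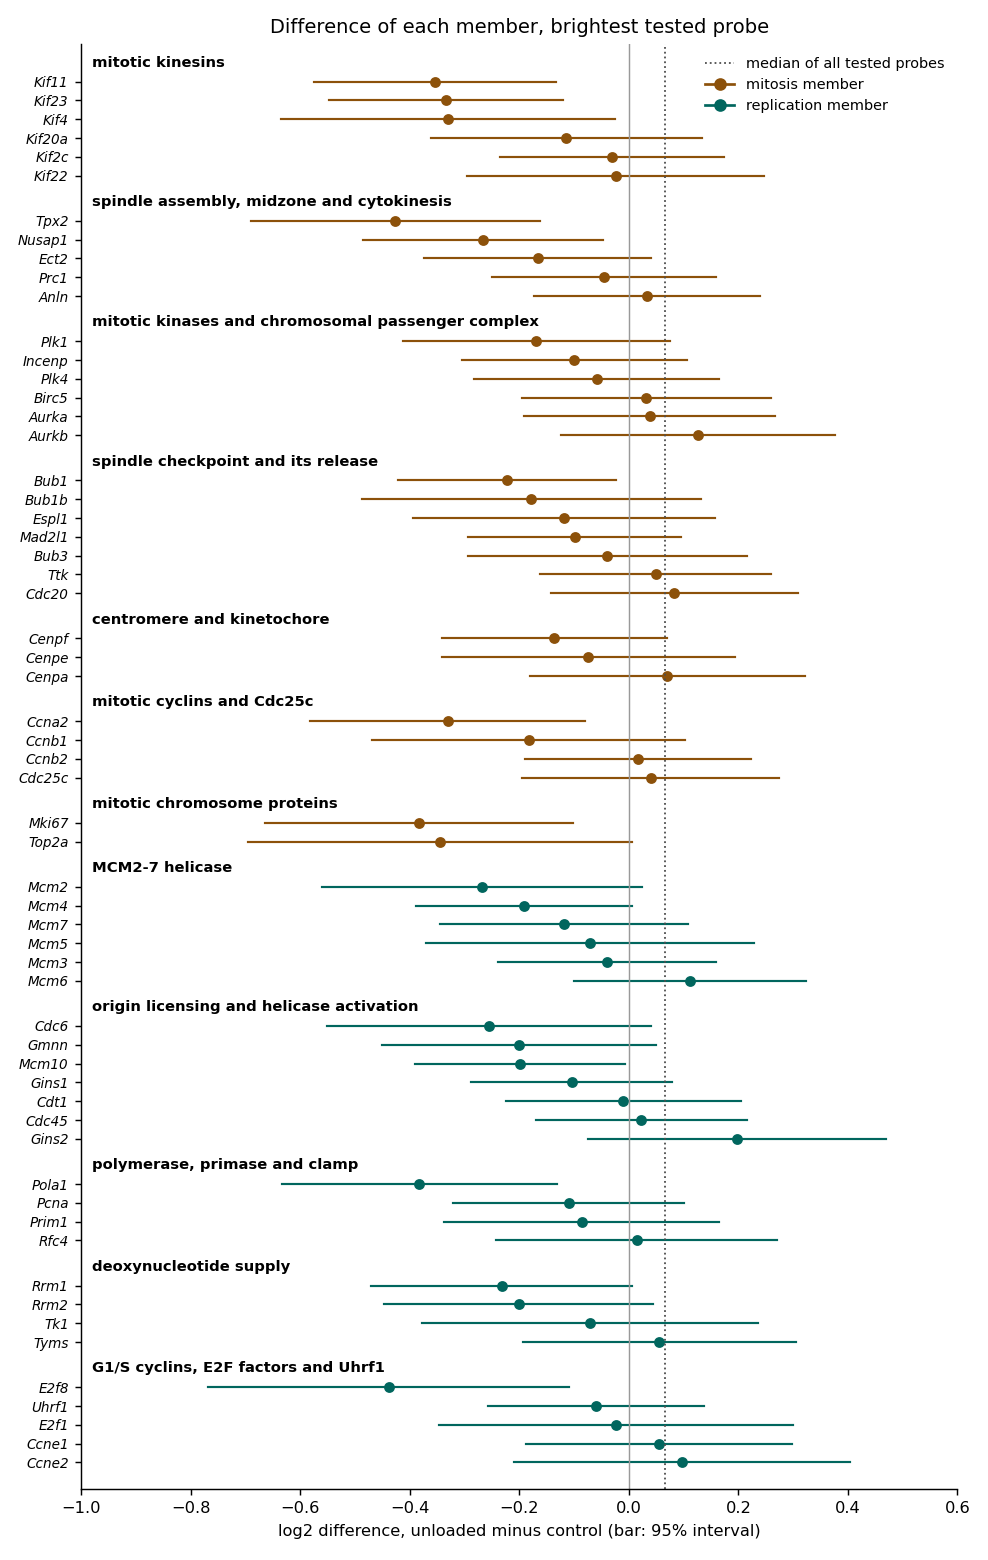
Each point is the log2 difference of 1 member, unloaded minus control, from its brightest tested probe, with its 95% interval as a bar, grouped by role; the dotted line is the median of all tested probes (0.07). Of the 59 points 43 lie left of 0, and 11 of the intervals lie wholly below 0 and none wholly above.

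The 6 mitotic kinesins, motors that build the spindle and carry chromosomes and midzone proteins along it, all had negative differences, with a median of -0.22 (-0.17 under cyclic loess, where 5 of 6 were negative). Kif11, the motor that pushes the spindle poles apart, had log2 signals of 0.02, -0.02, -0.23, -0.08 and -0.46 in unloaded bones 1 to 5, against 0.23, 0.17, 0.19, 0.24 and 0.15 in control bones 1 to 5. Every unloaded value lay below every control value, and unloaded 5 was the lowest. The difference was -0.35 (SE 0.10, adjusted p = 0.231), and without unloaded 5 it was -0.28. A second Kif11 probe of nearly the same brightness differed by 0.22 (SE 0.15, adjusted p = 0.451). Its mean was -0.08 in unloaded and -0.30 in control bones, against -0.16 and 0.20 for the probe used. Kif23, a motor of the centralspindlin complex that is needed for cytokinesis, had log2 signals of 1.15, 1.18, 1.27, 1.23 and 1.07 in unloaded bones 1 to 5, against 1.31, 1.42, 1.74, 1.61 and 1.49 in control bones 1 to 5. Here too the groups did not overlap, and the unloaded arrays lay close together. The difference of Kif23 was -0.33 (SE 0.10, adjusted p = 0.239). Kif4, which binds chromosomes and the spindle midzone, differed by -0.33 (SE 0.14, adjusted p = 0.291). The differences of Kif20a, which brings Aurora B to the midzone, Kif2c, which shortens microtubules, and Kif22, which pushes chromosome arms away from the poles, were -0.11, -0.03 and -0.02.

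Among 5 genes of spindle assembly, the midzone and cytokinesis, 4 had negative differences and the median was -0.17 (-0.10 under quantile normalization or cyclic loess). Tpx2, which activates Aurora A and starts microtubule growth around chromosomes, had log2 signals of 1.91, 1.97, 1.64, 1.88 and 1.31 in unloaded bones 1 to 5, against 2.11, 2.14, 2.27, 2.21 and 2.12 in control bones 1 to 5. No unloaded value reached the control range, and unloaded 5 was again the lowest. Tpx2 differed by -0.43 (SE 0.12, adjusted p = 0.231), a 1.34-fold lower signal, and by -0.32 without unloaded 5. Nusap1, which bundles spindle microtubules, had log2 signals of 2.76, 2.58, 2.46, 2.58 and 2.27 in unloaded bones 1 to 5, against 2.80, 2.70, 2.88, 2.76 and 2.83 in control bones 1 to 5. One unloaded array lay within the control range and the others below it. The difference of Nusap1 was -0.27 (SE 0.10, adjusted p = 0.266). Ect2, the exchange factor that switches on RhoA at the cell equator, differed by -0.17, Prc1, which crosslinks midzone microtubules, by -0.05, and Anln, a scaffold of the contractile ring, by 0.03.

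Of 6 genes of the mitotic kinases and the chromosomal passenger complex 3 had negative differences, and their median was -0.01. It was 0.0011 with normexp background correction, 0.04 without control 5 and -0.05 without unloaded 5. Under median scaling 5 of 6 were negative with a median of -0.11, and within slide 2, or with slide as a block, 6 of 6 with a median of -0.27. The differences ran from -0.17 for Plk1, a kinase of many mitotic steps, to 0.13 for Aurkb, the kinase of the passenger complex, with adjusted p of 0.433 and 0.559. Between them lay Incenp, the complex's scaffold (-0.10), Plk4, which starts centriole duplication (-0.06), Birc5, the complex's chromatin-binding subunit survivin (0.03), and Aurka, the spindle pole kinase (0.04).

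Of 7 genes of the spindle checkpoint and its release, 5 had negative differences, with a median of -0.10 (-0.01 without unloaded 5). Bub1, a kinase that recruits checkpoint proteins to kinetochores, had log2 signals of 0.81, 0.50, 0.55, 0.51 and 0.63 in unloaded bones 1 to 5, against 0.76, 0.84, 0.74, 0.95 and 0.83 in control bones 1 to 5. Unloaded 1 lay within the control range and the other unloaded arrays below it. The difference of Bub1 was -0.22 (SE 0.09, adjusted p = 0.284). The checkpoint proteins Bub1b, Mad2l1, Bub3 and Ttk differed by -0.18, -0.10, -0.04 and 0.05. Espl1, the protease separase that cuts cohesin, differed by -0.12, and Cdc20, the activator of the anaphase-promoting complex, by 0.08. For Espl1 and Bub3 the sign depended on the probe. A dimmer Espl1 probe differed by 0.25 (SE 0.12, adjusted p = 0.316), and the dimmer Bub3 probes by 0.14, 0.15 and 0.26. The 3 centromere genes had a median of -0.07 (-0.04 without control 5, and -0.12 without unloaded 5), with differences of -0.14 for the kinetochore protein Cenpf, -0.07 for the kinetochore motor Cenpe and 0.07 for the centromeric histone Cenpa.

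Of the 3 mitotic cyclins and Cdc25c, 2 of 4 had negative differences (4 of 4 under quantile normalization), with a median of -0.08 (-0.04 without unloaded 5 or without control 5). Ccna2, cyclin A, which acts in S phase and early mitosis, had log2 signals of 3.76, 3.72, 3.46, 3.66 and 3.17 in unloaded bones 1 to 5, against 3.95, 3.90, 3.93, 3.74 and 3.89 in control bones 1 to 5. Unloaded 1 lay just above the lowest control and the other unloaded arrays lay below all controls. Ccna2 differed by -0.33 (SE 0.12, adjusted p = 0.254). Ccnb1, cyclin B1, the partner of Cdk1 at the entry into mitosis, had log2 signals of 0.78, 0.95, 0.68, 1.20 and 0.62 in unloaded bones 1 to 5, against 0.95, 0.98, 1.31, 0.75 and 1.16 in control bones 1 to 5. The groups overlapped widely and the difference was -0.18 (SE 0.13, adjusted p = 0.466). Ccnb2, a second B-type cyclin, and Cdc25c, a phosphatase that activates Cdk1, differed by 0.02 and 0.04. The median of the mitotic chromosome proteins Mki67 and Top2a was -0.36 (-0.23 without unloaded 5). Mki67, the Ki-67 protein that coats mitotic chromosomes and is the usual marker of proliferating cells, had log2 signals of 5.70, 5.49, 5.23, 5.50 and 4.94 in unloaded bones 1 to 5, against 5.69, 5.85, 5.84, 5.77 and 5.62 in control bones 1 to 5. Unloaded 1 lay within the control range and the other unloaded arrays below it. The difference of Mki67 was -0.38 (SE 0.13, adjusted p = 0.252). Top2a, the topoisomerase that untangles sister chromatids, had log2 signals of 1.18, 1.30, 0.83, 1.37 and 0.36 in unloaded bones 1 to 5, against 1.29, 1.34, 1.41, 1.34 and 1.38 in control bones 1 to 5. Unloaded 2 and 4 lay within the narrow control range and unloaded 5 was far below all others. Top2a differed by -0.34 (SE 0.16, adjusted p = 0.316) with all arrays, and by -0.18 without unloaded 5.

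**Figure D3:**
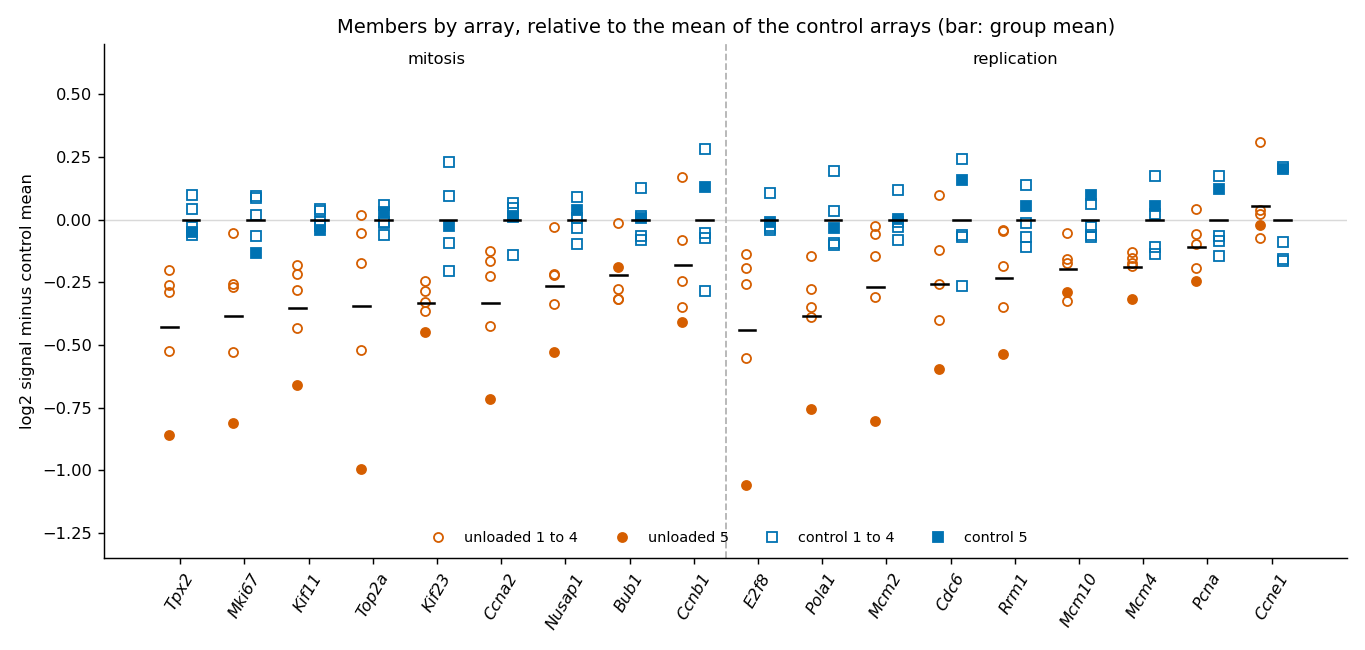
Log2 signals of 18 members in each array, shown relative to the mean of the 5 control arrays, with unloaded arrays (orange circles) left of control arrays (blue squares), filled symbols for unloaded 5 and control 5, and bars for group means. Unloaded 5 is the lowest array for most of the genes shown, and Ccne1 is the gene whose unloaded mean lies above its control mean.

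In replication, the MCM2-7 helicase that unwinds DNA had 5 of 6 subunits with negative differences and a median of -0.09. Without control 5 the median was -0.03 with 4 of 6 negative, without unloaded 5 it was -0.06 with 4 of 6 negative, and within slide 2 it was -0.23 with 6 of 6 negative. Mcm2, a subunit of the MCM helicase ring, had log2 signals of 2.53, 2.44, 2.28, 2.57 and 1.79 in unloaded bones 1 to 5, against 2.58, 2.51, 2.71, 2.56 and 2.59 in control bones 1 to 5. Unloaded 1 and 4 lay within the control range, the others below it, and unloaded 5 was far the lowest. The difference of Mcm2 was -0.27 (SE 0.14, adjusted p = 0.334), and -0.13 without unloaded 5. Mcm4, another subunit of the same ring, had log2 signals of 4.69, 4.65, 4.67, 4.63 and 4.50 in unloaded bones 1 to 5, against 4.84, 4.71, 4.68, 4.99 and 4.87 in control bones 1 to 5. Unloaded 1 lay within the control range and the other unloaded arrays just below it. Mcm4 differed by -0.19 (SE 0.09, adjusted p = 0.32). Mcm7, Mcm5, Mcm3 and Mcm6 differed by -0.12, -0.07, -0.04 and 0.11. The difference of Mcm6 was -0.13 within slide 2 and with slide as a block.

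Of 7 genes of origin licensing and helicase activation, 5 had negative differences, with a median of -0.10 (-0.06 without unloaded 5, and -0.04 under quantile normalization or cyclic loess). Mcm10, which helps to activate the helicase, had log2 signals of 2.62, 2.50, 2.34, 2.51 and 2.38 in unloaded bones 1 to 5, against 2.61, 2.60, 2.64, 2.73 and 2.77 in control bones 1 to 5. Unloaded 1 was within the control range and the others below it. Mcm10 differed by -0.20 (SE 0.09, adjusted p = 0.304). Cdc6, which loads the MCM ring onto origins, had log2 signals of 0.94, 0.80, 0.65, 1.15 and 0.46 in unloaded bones 1 to 5, against 0.99, 0.99, 1.30, 0.79 and 1.21 in control bones 1 to 5. The groups overlapped, with unloaded 3 and 5 below the controls. Cdc6 differed by -0.26 (SE 0.14, adjusted p = 0.352). Gmnn, which blocks reloading of the ring within a cycle, and Cdt1, its target, differed by -0.20 and -0.01. Cdc45, Gins1 and Gins2, which join the ring to form the active helicase, differed by 0.02, -0.10 and 0.20, the last being the largest positive difference of the 59. The difference of Gins2 was -0.25 within slide 2 and with slide as a block.

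Of the polymerase, primase and clamp genes 3 of 4 had negative differences, with a median of -0.10 (-0.06 without unloaded 5). Pola1, the catalytic subunit of DNA polymerase alpha, which starts each new strand, had log2 signals of 1.71, 1.58, 1.51, 1.47 and 1.11 in unloaded bones 1 to 5, against 1.76, 1.89, 1.77, 2.05 and 1.83 in control bones 1 to 5. The groups did not overlap, and unloaded 5 was the lowest. Pola1 differed by -0.38 (SE 0.12, adjusted p = 0.24), a 1.30-fold lower signal, and by -0.29 without unloaded 5. Pcna, the sliding clamp that holds polymerases on DNA, had log2 signals of 4.65, 4.78, 4.75, 4.89 and 4.60 in unloaded bones 1 to 5, against 4.78, 4.76, 5.02, 4.70 and 4.97 in control bones 1 to 5. The groups overlapped and the difference was -0.11 (SE 0.10, adjusted p = 0.547). Prim1, the primase, differed by -0.09, and Rfc4, a subunit of the clamp loader, by 0.01.

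Of 4 genes of deoxynucleotide supply 3 had negative differences, with a median of -0.14. Without unloaded 5 it was -0.05 with 2 of 4 negative. Rrm1, the large subunit of ribonucleotide reductase, had log2 signals of 3.93, 3.79, 3.62, 3.93 and 3.44 in unloaded bones 1 to 5, against 3.86, 3.96, 4.11, 3.90 and 4.03 in control bones 1 to 5. Unloaded 1 and 4 lay within the control range and the others below it. Rrm1 differed by -0.23 (SE 0.11, adjusted p = 0.319). Rrm2, the small subunit, Tk1, thymidine kinase, and Tyms, thymidylate synthase, differed by -0.20, -0.07 and 0.06. Of 5 genes of entry into S phase 3 had negative differences, with a median of -0.02 (0.01 without unloaded 5). E2f8, an E2F factor that represses E2F target genes, had log2 signals of 0.60, 0.48, 0.19, 0.55 and -0.32 in unloaded bones 1 to 5, against 0.70, 0.71, 0.85, 0.71 and 0.73 in control bones 1 to 5. All unloaded values lay below all controls, with unloaded 5 far the lowest. E2f8 differed by -0.44 (SE 0.15, adjusted p = 0.253), the most negative difference of the 59, and by -0.28 without unloaded 5. Ccne1, cyclin E, which drives entry into S phase, had log2 signals of 3.15, 3.17, 3.06, 3.44 and 3.11 in unloaded bones 1 to 5, against 3.04, 2.97, 3.34, 2.96 and 3.33 in control bones 1 to 5. One unloaded value lay above the control range and the others within it. Ccne1 differed by 0.06 (SE 0.11, adjusted p = 0.805), and by -0.04 under median scaling. Ccne2, a second cyclin E, E2f1, an activating E2F factor, and Uhrf1, which maintains DNA methylation after replication, differed by 0.10, -0.02 and -0.06.

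Mitosis and replication genes were close to each other. The median difference was -0.10 over mitosis and -0.08 over replication members, and the difference between these medians, -0.02, ranged from -0.07 to 0.03 over the alternatives. Of mitosis members 8 of 33 (24.2%), and of replication members 3 of 26 (11.5%), were lower at an unadjusted p below 0.05, beside 5.92% of all probes. In each array, members were centred on their mean over the 10 arrays and the median was taken. For mitosis it was 0.04, -0.09, -0.09, -0.02 and -0.10 in unloaded bones 1 to 5, against -0.01, -0.01, 0.06, 0.08 and 0.16 in control bones 1 to 5. For replication it was 0.00, -0.05, -0.10, 0.07 and -0.20 in unloaded bones 1 to 5, against -0.01, -0.05, 0.10, 0.03 and 0.18 in control bones 1 to 5. The groups overlapped in both sets, and mitosis minus replication within an array ran from -0.09 to 0.11 in unloaded and from -0.04 to 0.05 in control bones. The differences of members with a CHR in the promoter had a median of -0.07 (32 genes), against -0.10 for those without (16 genes), and those with an E2F motif had a median of -0.07 (11 genes), against -0.10 for those without (37 genes).

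**Figure D4:**
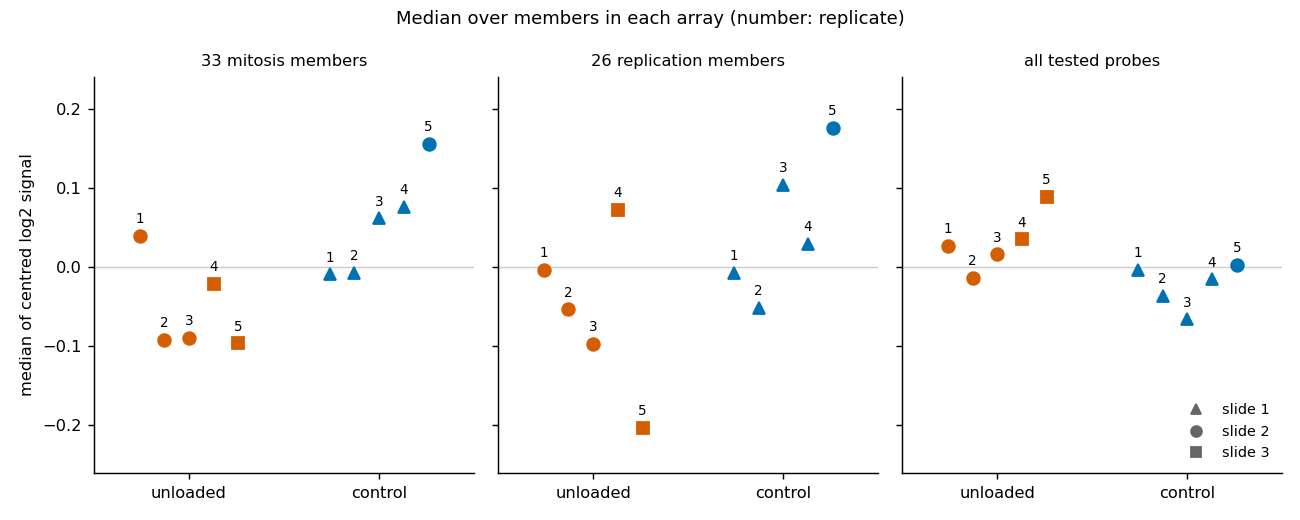
Each symbol is the median of centred log2 signals in 1 array over 33 mitosis members, 26 replication members or all tested probes, with unloaded arrays left of control arrays, numbers for replicates and symbol shapes for slides. In both member panels control 5 is the highest array and unloaded 5 the lowest, while in all tested probes unloaded 5 is the highest.

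Single arrays moved with the result. Unloaded 5 was the lowest array for 24 of 59 members (40.7%), where it was the lowest for 19.7% of all tested probes, and control 5 was the highest for 19 (32.2%), where it was the highest for 7.61%. Control 3 was the highest for 17 members (28.8%), where it was the highest for 10.6% of all tested probes. Without unloaded 5 the median was -0.09 over mitosis and -0.06 over replication members, and without control 5 it was -0.06 over mitosis and -0.04 over replication members. On slide 2 alone, with 3 unloaded arrays and control 5, the medians were -0.23 for mitosis and -0.24 for replication members, 55 of 59 differences were negative, where 48.7% of all probes were, and 1 member was lower at an unadjusted p below 0.05 (1.39% of all probes). Among the members given by array, the differences on slide 2 ran from -0.42 for Cdc6 to -0.15 for Mki67, with Ccne1 at -0.21. Markers of other cell types also differed on slide 2, in both directions. The median was 0.80 over cartilage markers (8 of 8 positive), 0.46 over osteoblast and osteocyte markers and 0.34 over muscle markers. It was -0.26 over B cell precursor, -0.15 over neutrophil precursor, -0.11 over erythroid and 0.03 over T and NK cell markers. Control 5 was the lowest array for 5 of 8 cartilage markers. The part of these cells in the slide 2 values was not tested. That comparison rests on 1 control array, whose spread is assumed to be that of the unloaded arrays.

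Several members have more than 1 probe, which gives the same gene a second reading. Of 28 members with several tested probes, 12 had probes on both sides of 0. Of 35 dimmer probes 21 were lower and 14 higher, where 37.4% of all tested probes were lower. Kif23 and Mki67 had 2 probes each that gave the same sign, as did the probes of Top2a, Ccnb1 and Cdc6. The dimmer probes of Top2a differed by -0.30 and -0.07, those of Ccnb1 by -0.24 and -0.18, and that of Cdc6 by -0.05. All tested probes of Tyms and Anln were higher in unloaded bones. The dimmer probe of Kif23 differed by -0.64 (SE 0.15, adjusted p = 0.215) without overlap of the groups, and that of Mki67 by -0.48 (SE 0.20, adjusted p = 0.281). The probes went apart for Kif11, of whose dimmer probes 1, nearly as bright as the probe used, differed by 0.22. The other was well above background on 2 of 5 unloaded arrays, against 5 of 5 control arrays, so that its difference is not given. They also went apart for Nusap1, E2f8, Rrm1 and Mcm4, whose dimmer probes differed by 0.04, 0.15, 0.20 and 0.24, and for Ccne1, whose dimmer probe differed by -0.0029. The other members with probes on both sides of 0 were Espl1, Bub3, Ect2, Cenpf, Ccne2 and Cdc25c. Dimmer probes differed by 0.25 for Espl1, 0.14 to 0.26 for Bub3, 0.14 for Ect2 and 0.07 for Cenpf. Those of Ccne2 and Cdc25c differed by -0.14 and -0.09. Tpx2, Pola1, Ccna2, Bub1 and Mcm10 were measured by 1 probe each.

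Other genes of both processes had like values, but on the same 10 arrays and in lists chosen with earlier results of these data known. Unloaded 5 was the lowest array for 21 of 34 other mitosis and 15 of 32 other replication genes, where it was for 19.7% of all probes. Control 5 was the highest for 13 genes of each list, where it was for 7.61% of all probes. Of 34 other mitosis genes, 28 had negative differences with a median of -0.16, 8 were lower and 1 was higher at an unadjusted p below 0.05, and 0 were called by limma. Over all probes 37.4% were negative, and 5.92% were lower and 10.2% higher at that p. Median scaling gave 16 lower genes of other mitosis and 12 of other replication genes, beside 11.6% of all probes. Cep55, which acts in the final separation of daughter cells, had log2 signals of -0.32, -0.21, -0.37, -0.53 and -0.71 in unloaded bones 1 to 5, against -0.05, 0.15, -0.17, -0.05 and -0.07 in control bones 1 to 5. The groups did not overlap and the difference was -0.39 (SE 0.11, adjusted p = 0.223). Kif18a, a kinesin that aligns chromosomes, and Kif15, a kinesin that supports the spindle beside Kif11, differed by -0.38 and -0.25, with adjusted p of 0.24 and 0.254. Of 32 other replication genes, 23 had negative differences with a median of -0.08, 5 were lower and 0 higher at an unadjusted p below 0.05, and 0 were called. Gins3, a subunit of the active helicase, differed by -0.27, Hells, a chromatin remodeller, by -0.24, and Rpa1, which coats single-stranded DNA, by -0.28, with adjusted p of 0.258, 0.276 and 0.303. In Rpa1 unloaded 5 was the lowest at 1.71, against 2.44 to 2.50 in the controls.

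Markers of several cell types also differed between the groups, and their part in the result was not tested. Of 12 B cell precursor markers 9 had negative and 3 positive differences, with a median of -0.13 and a highest of 0.15. Their summed linear signal relative to the 75th percentile was 65.5 to 92.0 in unloaded and 77.9 to 106.6 in control bones. The median of this sum was higher in unloaded bones, at 83.4 against 79.6 in control bones. Ebf1 and Rag1, which direct B cell development and antigen receptor rearrangement, differed by -0.35 and -0.38, with adjusted p of 0.252 and 0.308. Of 11 tested erythroid markers 7 had negative differences with a median of -0.10 (-0.01 without unloaded 5). The sum over the 9 measured on all arrays was 82.5 to 116.7 in unloaded and 83.0 to 118.9 in control bones. Its median was higher in unloaded bones, at 101.5 against 86.7 in control bones. That linear sum leans on Alas2, far the brightest of the 9. The mean log2 signal of Alas2 was 5.84 in unloaded and 5.64 in control bones. Of 11 tested neutrophil precursor markers 4 had negative differences with a median of 0.01 (-0.08 under median scaling and -0.01 under quantile normalization), and the sum over 10 of them was 507.6 to 542.5 in unloaded and 453.9 to 558.6 in control bones. Of 10 markers of T and NK cells 9 had positive differences with a median of 0.17 (0.03 within slide 2). At an unadjusted p below 0.05, 4 of them were higher and 0 lower, where 10.2% of all probes were higher. Markers of growth plate cartilage had a median of 0.18 (0.80 within slide 2) and those of osteoclasts 0.13 (0.22 within slide 2). The median was 0.08 for osteoblasts and osteocytes (0.46 within slide 2, and -0.02 under median scaling), -0.21 for muscle (0.34 within slide 2, and -0.06 without unloaded 5) and -0.17 for adipocytes (-0.14 within slide 2, and -0.30 without unloaded 5). The summed signal was 128.6 to 272.7 in unloaded and 119.0 to 267.2 in control bones for muscle, and 61.8 to 98.3 in unloaded and 54.7 to 115.6 in control bones for adipocytes. The probe used for each tested marker was well above background on all 10 arrays. In each of these lists the summed levels of the groups overlapped, and no list had a member called. For T and NK cells the overlap came from control 5 (8.64), with unloaded bones at 7.98 to 9.39 and the next highest control at 7.47. For osteoblasts and osteocytes it came from control 4 (424.5), with unloaded bones at 416.0 to 459.4 and the next highest control at 392.7.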

How the data were processed

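Femur RNA of 5 unloaded and 5 control mice was measured on one-colour Agilent arrays. The deposited scanner files hold linear intensity values that the authors obtained, per the file headers, with Agilent Feature Extraction 9.1.3.1 (protocol GE1-v5_91_0806), with background correction and detrending within each array. The deposited series matrix holds the same intensity values: its ratios to them lay between 0.995 and 1.005, its scale is therefore linear and uncentred, and its column medians were 315, 269, 253, 311 and 291 for unloaded and 335, 332, 303, 261 and 306 for control replicates 1 to 5. It served as an alternative.

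Replicate spots were averaged as log2 values without 97 spots marked as outliers, and each array's 75th percentile (637 to 903 intensity units) was subtracted. Testing required a probe to be well above background on 4 or more of the 5 arrays in either group, with values on 3 or more arrays in both, which left 38629. Names came from the files and from RefSeq (GRCm38.p6), through which 22951 probes were named by accession and 3109 by an older name. The brightest tested probe stood for a gene. The two-sided test of unloaded minus control came from lmFit and eBayes of limma 3.58.1 (R 4.3.3), with adjustment over all tested probes. Lists were described by counts and medians, without a test. The number of arrays limits the precision. On simulated arrays of 38550 probes the fit recovered 38% of log2 changes of 0.5 and 97% of changes of 1, with 8 false calls.

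Values in every array were given for Mki67, Top2a, Ccnb1, Mcm2, Pcna and Ccne1, for the 7 mitosis and 7 replication members with the smallest p, and for Cep55. Of the other genes of both processes the 3 with the smallest p were named, and of marker lists up to 2. Kif4, Alas2 and the extremes of a role were named after their values were seen. The members and the lists were chosen with earlier results of these data known. The alternatives covered background correction, scaling, filters, the variance model, array weights, use of the matrix, slide, replicate number, body weight, the probe of a gene, naming, the threshold, the promoter window and each array left out. Promoter windows and figures were handled with pandas 2.3.3 and matplotlib 3.10.9 in Python 3.11.15, and the R package data.table (version 1.17.8) read the files. Kifc1, Hbb-b1 and Cebpe, listed beside the members, were not tested.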

Additional observations from a re-analysis of the deposited data

Results flagged for a closer look

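The 54 groups of 5 values examined were those of 24 genes (18 members and 6 other genes of both processes) and of the array medians of mitosis, replication and their difference, in unloaded and in control bones. In them 3 values lay further from the rest of their group than Dixon's critical value of 0.71 for the gap over the range allows; chance gives about 1 in 20. All 3 were control arrays. Ccna2 in control 4 had a log2 signal of 3.74, below the other controls (gap over range 0.728). E2f8 in control 3 had 0.85, above the other controls (gap over range 0.770). Gins3 in control 4 had 0.16, below the other controls (gap over range 0.813).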

How the results depend on the processing

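No member and no other gene of either process was called under any of the 27 settings run, an adjusted p below 0.10 included. The medians of mitosis and replication members were negative under every one of the 26 settings that give them. They lay from -0.13 to -0.06 for mitosis and from -0.13 to -0.04 for replication when each array was left out in turn. The settings are not independent of each other, and some could hardly move a median or could not move it at all. Over all members it stayed at -0.10 with the trend and robust variance model, the replicate block, either change of filter and the series matrix. The medians were -0.19 for mitosis and -0.17 for replication with median scaling, -0.08 and -0.04 in that order with quantile normalization, -0.07 and -0.03 with cyclic loess, and -0.05 and -0.07 with the mean of all probes of a gene. With slide as a fixed block, and within slide 2, the medians were -0.23 for mitosis and -0.24 for replication. Both of these settings compare the groups on slide 2 alone, as the other slides carry only controls or only unloaded arrays. The difference between both sets had no stable sign: from -0.07 to 0.03 over all settings. The count of members lower at an unadjusted p below 0.05, 11, was 20 with median scaling (11.6% of all probes lower), 7 with quantile normalization (7.61%), 7 with cyclic loess (7.65%), 1 with slide as a block (1.32%) and 1 within slide 2 (1.39%). It lay between 8 and 14 with each array left out, where 4.03% to 8.37% of all probes were lower. Ccne1 changed sign, with a log2 difference of -0.040 with median scaling, -0.21 with slide as a fixed block and within slide 2, and -0.0084 without unloaded 4, and its range with each array left out was -0.0084 to 0.11. Mcm4 changed sign, with a log2 difference of 0.022 with the mean of its probes. The cause was not tested. Of the 41 members not given by array, 28 changed sign under at least 1 setting, none with a difference above 0.20 in size. In the 150 bases before the start alone, the CHR was found in 51.9% of mitosis, 19.0% of replication and 16.8% of all promoters, a shorter window holding fewer matches by construction.

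Replicate numbers did not pair the samples: the correlations of same-numbered arrays were -0.05, 0.18, -0.11, -0.14 and 0.07, and no array correlated best with its own number. These are not correlations of the array signals themselves, whose means per array were 0.972 to 0.987. With the replicate block 0 members were called. At an unadjusted p below 0.05 that block gave 9 lower and 0 higher members, beside 5.96% of all probes lower and 10.7% higher. The probes that stood for the 59 members were well above background on all 10 arrays; a dimmer probe of Kif11 was not.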
